A study of Mus musculus with 141 samples.

Results

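The S100 proteins and annexins described here are 10 calcium-binding gene products, 5 S100 genes (*S100a1*, *S100a6*, *S100a10*, *S100a11* and *S100g*) and 5 annexin genes (*Anxa1* to *Anxa5*), taken by name from the 17136 genes of the count matrix. Their reads were followed in single tdTomato+ cells from the lungs of 1 mouse. The cells were caught on a Fluidigm C1 chip, a microfluidic plate with 1 cell to a capture site and sites numbered by column and row. The mouse was 4 months old, of strain 129SV per the labels and double-heterozygous (*ACID;R26tdTomato*). It carried a *Cre-IRES-DsRed* cassette in exon 1 of its own *Aqp5* gene and a *tdTomato* reporter at *ROSA26* behind a floxed stop, so that a cell that has once used the *Aqp5* promoter keeps the reporter. Cells were sorted as CD31-, CD45-, E-cadherin+ and tdTomato+, and all of them share this genotype, gate and chip. There was no second condition and no second animal.

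The 92 cells with a mitochondrial share of reads under 0.15 were kept and 49 others left out. They held 142003 to 2170760 reads each. The 45 cells with an *Ager* level of at least 5000 CPM (the usual depth-scaled read count, by the total of the cell or class) are called AT1-like (alveolar type 1), the 11 with at least 8000 CPM of *Sftpc* AT2-like (alveolar type 2), and the remaining 36 the other cells. No cell passed both limits. The lowest *Ager* value inside the first class was 9335 CPM and the highest outside it 1402 CPM, against 25437 and 7774 CPM for *Sftpc*. The labels call every cell alveolar type 1, and the marker lists go against this for the 2 later classes. Type 1 markers that the rule did not use (*Hopx*, *Pdpn*, *Cav1* and 7 more) summed to a median of 24261 CPM in AT1-like cells, 799 CPM in AT2-like cells and 572 CPM in the other cells. A list of 10 type 2 markers without *Sftpc* summed to medians of 166, 48147 and 214 CPM. By the leading marker list, 12 of the other cells were ciliated-like, 8 club-like, 8 basal-like and 2 fibroblast-like, and 6 were left unplaced because no list led by 0.5, a limit chosen after the scores were seen. *Ptprc* (CD45) had 0 reads in all 3 classes. Endothelial and neutrophil markers had a median of 0 CPM in each class. Of the macrophage list 2 of 6 genes were in the counts and 1 had reads, with medians of 44.6, 0 and 0 CPM and a highest value of 1468 CPM in an AT1-like cell. The part of such RNA in the results was not tested.

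S100 proteins are small proteins with paired EF-hand loops. Most of them change shape on binding calcium and then dock onto partner proteins, while *S100a10* encodes the exception, which no longer binds calcium and is held by annexin A2. Annexins bind acidic phospholipids of membranes when calcium rises, and several of them carry an S100 dimer on their amino-terminal tail. In the alveolus, type 1 cells form the thin surface for gas exchange and type 2 cells secrete surfactant by calcium-triggered exocytosis, a step for which annexins have long been studied.

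Of the 5 S100 genes, *S100a1* (chr3:90511034-90514392), *S100a6* (chr3:90612882-90624181), *S100a11* (chr3:93520488-93526287) and *S100a10* (chr3:93555080-93564643) lie within 3053610 bases of mouse chromosome 3 (GENCODE vM21 on GRCm38), the S100 gene cluster. *S100g* lies apart at chrX:162961992-162964599. *Anxa5* is also on chromosome 3 (chr3:36448923-36475894), and the other annexin genes are dispersed, *Anxa1* at chr19:20373428-20390944, *Anxa2* at chr9:69453620-69491795, *Anxa3* at chr5:96793339-96845966 and *Anxa4* at chr6:86736840-86793584. All 10 are protein-coding. For 8 of the 10 a RefSeq promoter sequence was at hand, and none was used for *S100a10* and *Anxa3*. The sequences of 5 are printed because their genes carry the main contrasts below: *S100g*, which separated AT2-like cells, the pair *S100a6* and *Anxa5*, the closest of all S100 and annexin pairs over the kept cells, and the partner genes *S100a11* and *Anxa2*. Each runs 5′ to 3′ on the strand of its gene and stops before the first base of the GENCODE gene. Capitals mark TGAGTCA, the AP-1 motif, on either strand.
S100g, GRCm38.p6, chrX:162964600-162964849, minus strand: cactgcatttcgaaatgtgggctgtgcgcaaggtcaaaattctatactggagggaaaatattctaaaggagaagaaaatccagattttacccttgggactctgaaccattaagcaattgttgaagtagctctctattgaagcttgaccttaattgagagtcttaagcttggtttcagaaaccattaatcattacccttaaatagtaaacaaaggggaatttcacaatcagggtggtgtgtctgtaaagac
S100a6, GRCm38.p6, chr3:90612644-90612881, plus strand: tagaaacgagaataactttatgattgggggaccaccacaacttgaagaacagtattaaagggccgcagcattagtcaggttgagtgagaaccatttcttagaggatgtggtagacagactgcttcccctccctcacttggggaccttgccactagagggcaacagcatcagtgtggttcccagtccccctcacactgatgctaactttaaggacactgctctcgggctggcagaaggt
Anxa5, GRCm38.p6, chr3:36475895-36476137, minus strand: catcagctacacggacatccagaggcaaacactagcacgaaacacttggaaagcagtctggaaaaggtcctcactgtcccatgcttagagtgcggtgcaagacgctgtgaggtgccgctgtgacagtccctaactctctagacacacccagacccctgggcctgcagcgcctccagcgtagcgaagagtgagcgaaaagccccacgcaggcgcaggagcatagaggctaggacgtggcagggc
S100a11, GRCm38.p6, chr3:93520246-93520487, plus strand: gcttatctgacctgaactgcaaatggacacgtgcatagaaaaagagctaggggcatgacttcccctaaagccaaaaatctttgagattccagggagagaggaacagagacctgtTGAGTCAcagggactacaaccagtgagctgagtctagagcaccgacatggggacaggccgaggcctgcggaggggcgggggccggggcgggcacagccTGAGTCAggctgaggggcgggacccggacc
Anxa2, GRCm38.p6, chr9:69453433-69453619, plus strand: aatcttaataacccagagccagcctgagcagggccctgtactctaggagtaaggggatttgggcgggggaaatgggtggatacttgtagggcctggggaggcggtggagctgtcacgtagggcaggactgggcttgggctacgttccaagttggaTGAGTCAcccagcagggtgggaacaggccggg
In the window of 250 bases before the RefSeq start, TGAGTCA was found in 2 places of *S100a11*, the nearer at -38, and at -95 of *Anxa2*, and in none of the other member windows searched. Over all 32851 promoter windows of that length, 4.46% held it on one strand or the other. TATAAA was found in *Anxa1* (at -32) and *Anxa2* (at -17), against 12.4% of all windows, and CATTCC, the TEAD motif, in *Anxa1* (at -236), against 12.6%. These are matches of letters, and none is shown to be a site. The stretch before *S100g* was 38.4% G and C, and those before the other printed genes 50% to 59.9%.

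Levels are given as CPM of the reads summed over a class, with an exact Poisson 95% interval, and single cells by their lowest, median and highest CPM. These intervals take in counting error and nothing else, since no molecular identifiers are stated and reads amplified by PCR are not separate molecules. All cells come from 1 animal, so no test was made between classes, and a difference is described by its log2 ratio and by the overlap of the cells. A gene was counted as past the limit when its ratio exceeded 2-fold.

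**Figure D1:**
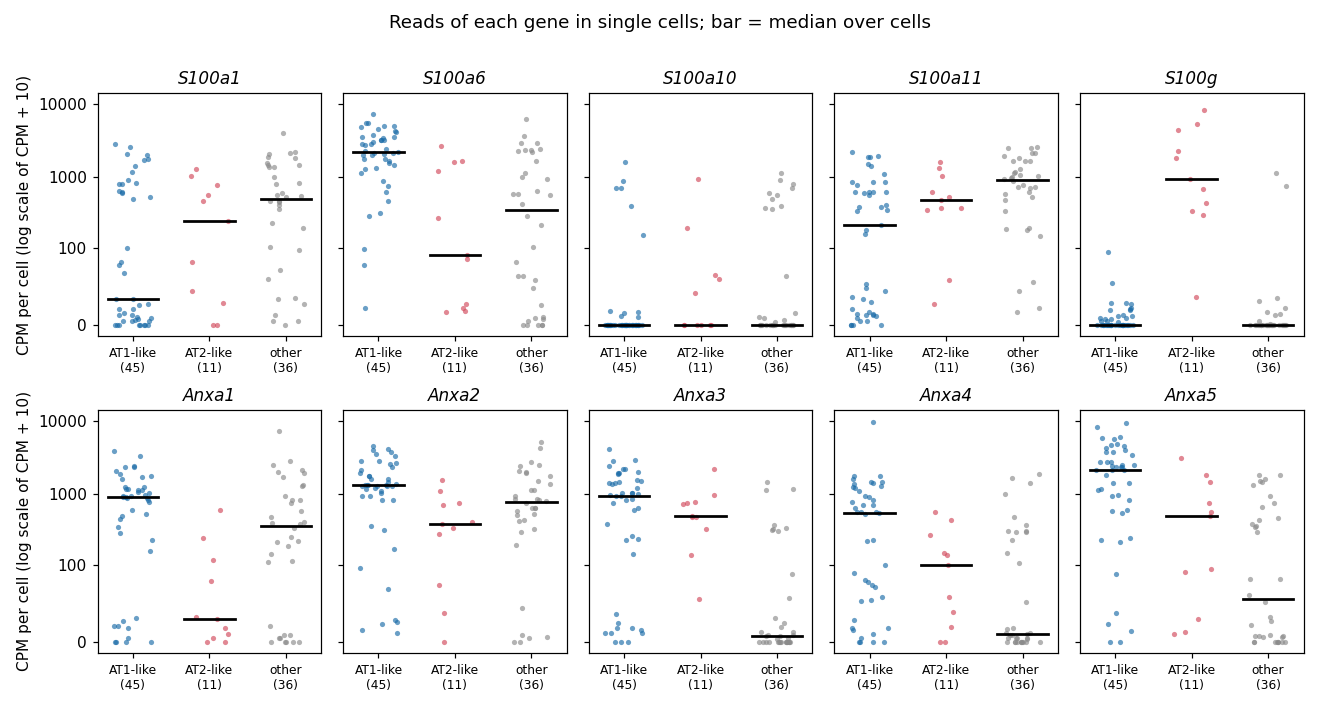
Reads of the 10 genes in each kept cell, in CPM on a log scale of CPM + 10 (y axis), for 45 AT1-like, 11 AT2-like and 36 other cells (x axis); each point is 1 cell and the bar the median over cells. *S100g* points of AT2-like cells lie above nearly all others, *S100a6* and *Anxa5* are highest in AT1-like cells with overlap, and *S100a10* has a median of 0 CPM in every class.

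*S100a6*, which encodes calcyclin, was the S100 gene with the clearest preference for AT1-like over AT2-like cells. It was read in 45 of 45 AT1-like cells, from 7.33 to 7383 CPM with a median of 2226 CPM. In the 11 AT2-like cells it ranged from 5.25 to 2659 CPM with a median of 80.4 CPM, and in the other cells from 0 to 6318 CPM with a median of 360 CPM. The ranges overlapped, but in 85.7% of all pairs of an AT1-like and an AT2-like cell the AT1-like cell was the higher one. Summed over cells, AT1-like cells had 2609 CPM (2589 to 2630), AT2-like cells 629 CPM (610 to 649) and the others 1023 CPM (1011 to 1035), a log2 ratio of 2.05 over AT2-like and 1.35 over the other cells. One AT2-like cell held 44.3% of the AT2-like reads, and without it the AT2-like level was 455 CPM. The AT2-like cells fell apart for this gene. In 4 of them, with 1217 to 2659 CPM, it was in the range of most AT1-like cells, while 4 had 5.25 to 9.66 CPM. The 4 high cells lay in chip columns 7 to 12 and the 4 low ones in columns 13 to 20. A split by cell cannot be told apart here from one by chip position.

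*S100g*, encoding the small vitamin D-dependent calbindin that buffers calcium in absorptive epithelia, went the other way. It was read in 11 of 11 AT2-like cells, from 14.5 to 8351 CPM with a median of 954 CPM, and 10 of them had at least 100 CPM. Of the AT1-like cells 19 of 45 had a read, none reached 100 CPM and the median was 0 CPM. Of the other cells 10 of 36 had a read, and 2 passed 100 CPM, with 1144 and 768 CPM. The AT1-like cell was the higher one in only 0.404% of pairs with an AT2-like cell. AT2-like cells summed to 1682 CPM (1650 to 1714), AT1-like cells to 5.75 CPM (4.81 to 6.81) and the others to 50.2 CPM (47.5 to 52.9). The log2 ratio of AT1-like to AT2-like cells was -8.19, and that of AT2-like to the other cells 5.07.

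The few *S100g* reads outside AT2-like cells were set beside *Sftpc*, which had reads in all 92 kept cells. In AT2-like cells there were 10.0 *S100g* reads (9.84 to 10.2) per 1000 *Sftpc* reads. In AT1-like cells the ratio was 22.7 (19.01 to 27.01), but 1 cell held 62.4% of these reads, and without it the ratio was 9.64 (7.15 to 12.7), an interval that includes the AT2-like value. Its *S100g* level was then 2.25 CPM. Set beside *Sftpb*, another surfactant gene, the AT1-like ratio was 200.9 with that cell and 80.3 without it, against 189.7 per 1000 *Sftpb* reads in AT2-like cells, so that without the cell the AT1-like ratio was near the AT2-like one for *Sftpc* and lower for *Sftpb*. The source of these few reads was not tested. The 2 other cells with 1144 and 768 CPM differed from this: they had 4947 and 7.30 CPM of *Sftpc*, and 402564 and 311122 CPM of *Scgb1a1*, the club cell secretoglobin. Without them the ratio in the other cells was 1.10 per 1000 *Sftpc* reads, and with them 61.2. The AT2-like cell with the most *S100g* (8351 CPM) was the one with the least *Sftpc* (25437 CPM) and the lowest sum of type 2 markers (14687 CPM), so the highest *S100g* did not go with the highest *Sftpc*. Without that cell the log2 ratio of AT1-like to AT2-like cells was -8.01 and that of AT2-like to other cells 4.88. On the opposite strand *S100g* overlaps *Ctps2*, which had 105.7 CPM in AT1-like cells, 0.309 CPM in AT2-like cells and 41.96 CPM in the others. Whether counting used the strand is not given in the sources used here.

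**Figure D2:**
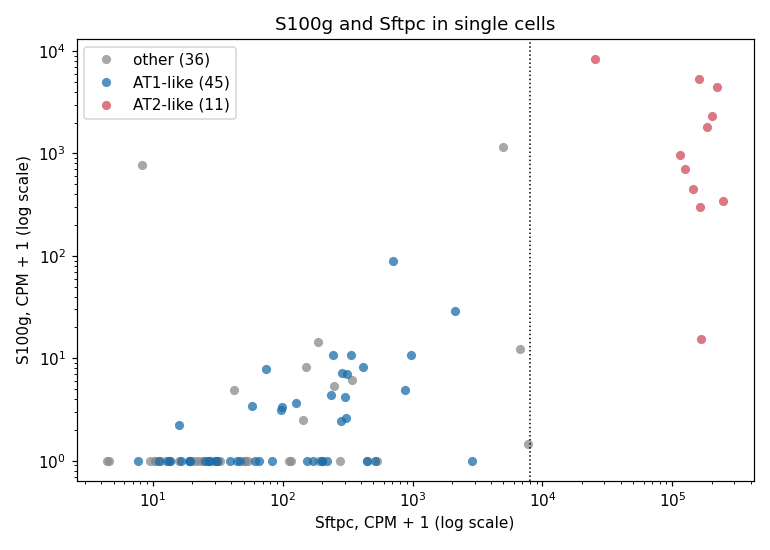
*S100g* (y axis) against *Sftpc* (x axis) in each of the 92 kept cells, both as CPM + 1 on log scales, coloured by class, with a dotted line at the *Sftpc* limit of 8000 CPM. All 11 AT2-like cells lie to the right with 14.5 to 8351 CPM of *S100g*, and the 2 other cells with 1144 and 768 CPM lie to the left of the limit.

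*S100a1*, a calcium sensor best known from heart muscle, and *S100a11*, a partner of annexin A1, did not separate the 2 alveolar classes. *S100a1* was at 412 CPM (404 to 421) in AT1-like and 435 CPM (419 to 452) in AT2-like cells, a log2 ratio of -0.08 (-0.14 to -0.02). Its AT1-like cells were divided: 18 of 45 had at least 100 CPM, up to 2821 CPM, while the median was 12.7 CPM and 8 had no read. In the other cells it was at 834.5 CPM, with a read in 35 of 36 and a median of 508 CPM. The log2 ratio of AT1-like to other cells, -1.02, stood at the 2-fold limit. *S100a11* was at 534 CPM (524 to 543) and 541 CPM (523 to 559) in the alveolar classes, a log2 ratio of -0.02 (-0.07 to 0.03), and at 958 CPM in the other cells. Every AT2-like and every other cell had a read of it, against 41 of 45 AT1-like cells. The median cell had 216 CPM in the AT1-like class, 491 CPM in the AT2-like class and 913 CPM among the others, and an AT1-like cell was the higher one in 25.9% of pairs with one of the other cells. Reads of *S100a11* may be shared with processed pseudogenes. *Gm12854* (98.99% identical over 297 bases) and *Gm7665* (98.7%) were in the counts with 1.46% and 0.754% as many reads as *S100a11*, and adding them gave log2 ratios of -0.03 between the alveolar classes and -0.86 between AT1-like and other cells.

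*S100a10*, the S100 partner of annexin A2, was found in few cells. It had a read in 11 of 45 AT1-like, 5 of 11 AT2-like and 16 of 36 other cells, and at least 100 CPM in 6, 2 and 10 of them. The median was 0 CPM in each class and the highest cells had 1611, 951 and 1154 CPM. Its summed levels of 121.1, 80.4 and 184 CPM rested on single cells: 1 AT2-like cell held 69.1% of the AT2-like reads, and without it the AT2-like level was 26.4 CPM. After drawing 90000 reads from each cell, 15.6% of AT1-like, 45.5% of AT2-like and 30.6% of other cells still had a read. At this depth no order of the classes can be given for *S100a10*.

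Each of the 5 annexins was higher in AT1-like than in AT2-like cells, and 4 passed the limit, as did 51.4% of all 8796 genes tested, whose median log2 ratio was 1.13. *Anxa5*, whose product binds phosphatidylserine and serves as a stain for dying cells, ranged from 0 to 9312 CPM in AT1-like cells with a median of 2132 CPM. AT2-like cells ranged from 2.76 to 3128 CPM with a median of 506 CPM, and the other cells from 0 to 1822.5 CPM with a median of 28.9 CPM. High values occurred in all 3 classes, but 39 of 45 AT1-like cells had at least 100 CPM, against 6 of 11 and 15 of 36. The summed levels of 2550 CPM (2530 to 2571), 645 CPM (626 to 665) and 372 CPM (365 to 379) gave log2 ratios of AT1-like cells of 1.98 over AT2-like and 2.78 over the other cells, the latter the largest of the 10 genes in favour of AT1-like cells. An AT1-like cell was the higher one in 83.8% of pairs with one of the other cells.

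*Anxa1* encodes lipocortin, which limits inflammation through formyl peptide receptors, and had the largest difference of the annexins between the alveolar classes. AT1-like cells ranged from 0 to 3881 CPM with a median of 908 CPM, and 35 of 45 had at least 100 CPM. AT2-like cells had 0 to 613 CPM with a median of 10.5 CPM, and 3 of 11 reached 100 CPM. The ranges overlapped, with the AT1-like cell higher in 81.2% of pairs. The summed levels were 896 CPM (884 to 908) and 72.4 CPM (66.004 to 79.3), a log2 ratio of 3.63. Over the 17 alternatives this ratio ran from 2.31 to 7.43, the highest in chip columns 11 to 20. One AT2-like cell held 49.5% of the AT2-like reads. In the other cells *Anxa1* was at 671 CPM (661 to 681), a log2 ratio of 0.42, so its contrast was with AT2-like cells.

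*Anxa2*, which links membranes to actin and holds *S100a10* protein at the surface, was read in 45 of 45 AT1-like cells, from 3.21 to 4587 CPM with a median of 1331 CPM. AT2-like cells ranged from 0 to 1545 CPM with a median of 385 CPM and the other cells from 0 to 5141 CPM with a median of 790 CPM. The summed levels were 1636, 415 and 1065 CPM, log2 ratios of AT1-like cells of 1.98 over AT2-like and 0.62 over the other cells.

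*Anxa3* had the smallest difference of the annexins between the alveolar classes. AT1-like cells had a median of 942 CPM and AT2-like cells one of 500 CPM, with 34 of 45 and 10 of 11 cells at 100 CPM or more. In the other cells the median was 1.98 CPM and 8 of 36 reached 100 CPM. The summed levels were 1038 CPM (1025 to 1052), 645 CPM (625 to 664) and 196 CPM (191 to 202). The log2 ratio was 0.69 between AT1-like and AT2-like cells, below the limit, and 2.40 and 1.71 for these classes over the other cells. The first ratio passed the limit in 5 of 17 alternatives, at 1.16 with a mitochondrial maximum of 0.10, 1.35 over all deposited cells, 1.18 with an *Sftpc* limit of 2000 CPM, 1.14 in chip columns 11 to 20 and 3.44 among the cells left out. It was the annexin whose AT2-like cells stood farthest above the other cells, with the AT2-like cell higher in 88.6% of pairs.

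*Anxa4*, an annexin typical of epithelia, stood at 737 CPM (726 to 748) for AT1-like cells, against 185 CPM (175 to 196) for AT2-like cells and 181 CPM (176 to 187) for the others. One AT1-like cell with 9699 CPM held 20.4% of its class's reads, and without it the AT1-like level was 596 CPM. The medians were 546, 100.4 and 2.89 CPM. The log2 ratio of AT1-like cells was 1.99 over AT2-like and 2.02 over the other cells, and that of AT2-like to other cells 0.03 (-0.06 to 0.12).

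**Figure D3:**
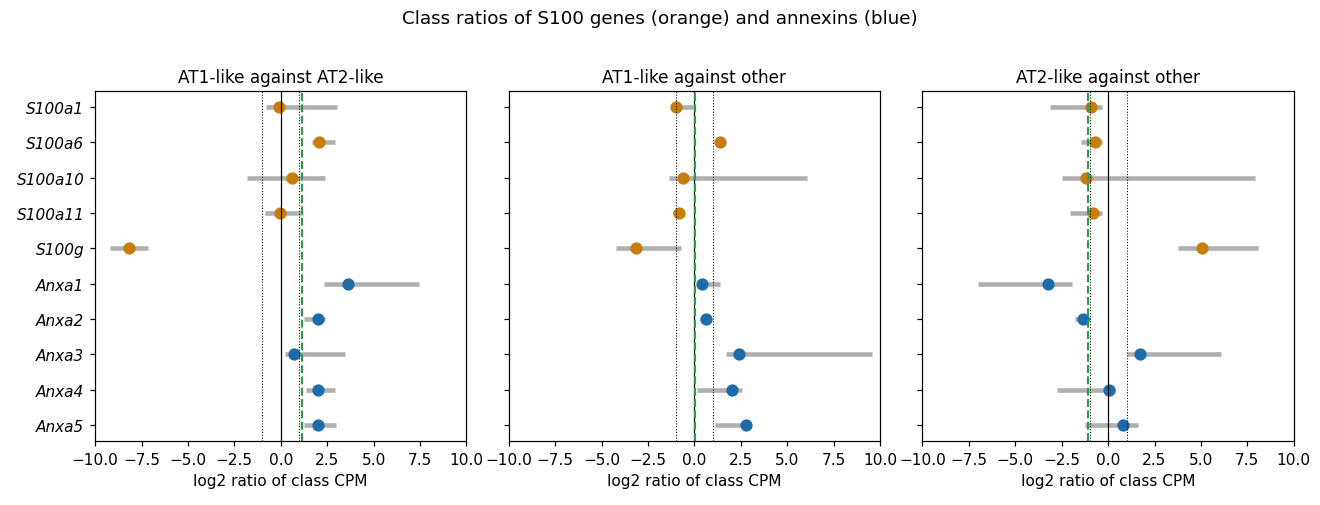
Log2 ratio of class CPM (x axis) for each gene (y axis) in the 3 comparisons, S100 genes in orange and annexins in blue; grey bars span the values under the 17 alternative settings, dotted lines mark 2-fold, the solid line 0 and the green dashed line the median of all genes tested. *S100g* is at -8.19 in the first panel and *Anxa5* at 2.78 in the second, and the grey bars of *S100a10* cross 0 in all 3 panels.

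These ratios have to be read against all other genes. Between AT1-like and AT2-like cells 5 of the 10 genes (*S100a6*, *Anxa1*, *Anxa2*, *Anxa4* and *Anxa5*) were more than 2-fold higher in AT1-like cells, where 51.4% of 8796 genes tested were, and 1 (*S100g*) was lower, where 24.3% were. Between AT1-like and other cells 4 (*S100a6*, *Anxa3*, *Anxa4* and *Anxa5*) were higher, where 33.4% of 10205 genes were, and 2 (*S100a1* and *S100g*) were lower, where 34.8% were. Between AT2-like and other cells 2 (*S100g* and *Anxa3*) were higher, where 21.7% of 9351 genes were, and 3 (*S100a10*, *Anxa1* and *Anxa2*) were lower, where 51% were. The counts of members that were higher are near these shares, and the counts of members that were lower are below them. With 10 genes these counts are a description and no result about the group. *S100g* entered the comparisons of AT1-like cells only through the class in which it was high, and the other 9 had at least 10 CPM in both classes. The median log2 ratio of all genes tested was 1.13 for AT1-like over AT2-like, 0.00443 for AT1-like over other and -1.10 for AT2-like over other cells, against 1.33, 0.52 and -0.76 for the 10 genes. AT2-like cells spent 167612 CPM on *Sftpc* alone. Among the genes with at least 100 CPM in 1 of the compared classes, the median was 0.43 for AT1-like over AT2-like cells. *Anxa1* then lay 3.20 above it, higher than 82.2% of those genes, *S100a6* 1.62, *Anxa2* 1.55, *Anxa4* 1.56 and *Anxa5* 1.55 above, and *S100a1* 0.51 below. *S100g* lay 8.62 below it, with 3.52% of genes lower. At this limit *Anxa1* (72.4 CPM in AT2-like cells) and *S100g* (5.75 CPM in AT1-like cells) entered only through the class in which they were high. Their places among those genes are thus partly set by the limit. Over the other cells the median of such genes was 0.48, and *Anxa5* lay 2.29, *Anxa3* 1.92 and *Anxa4* 1.54 above it, while *Anxa1* was at -0.07 and *Anxa2* at 0.13 from it.

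Counted per cell, more annexins passed 100 CPM in AT1-like cells than in the others. A median of 4 of the 5 annexins had at least 100 CPM in an AT1-like cell, and 17 of 45 cells had all 5. Each annexin singly passed 100 CPM in 27 to 39 of the 45 cells, and whether they occurred together more often than these shares give was not tested. The median was 3 in AT2-like and in other cells, where 1 of 11 and 1 of 36 cells had all 5. The share of all genes past 100 CPM in a cell was not computed. Of all genes tested, 51.4% were more than 2-fold higher in AT1-like than AT2-like cells, and 33.4% than in other cells. The counts and the sums that follow therefore cannot be told apart from a shift of all genes. The summed annexin reads ranged from 253 to 15889 CPM in AT1-like cells with a median of 6075 CPM, from 514 to 4313 CPM in AT2-like cells with a median of 1863 CPM, and from 2.57 to 8922 CPM in other cells with a median of 1615 CPM. The summed S100 reads did not follow: their medians were 3269, 3399 and 2214 CPM. In class CPM *S100a6* was the largest of them in AT1-like cells (2609 CPM) and *S100g* in AT2-like cells (1682 CPM). Single AT2-like cells varied, and in several another S100 gene was above *S100g*. The AT2-like cell with 2659 CPM of *S100a6* had 341 CPM of *S100g*.

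**Figure D4:**
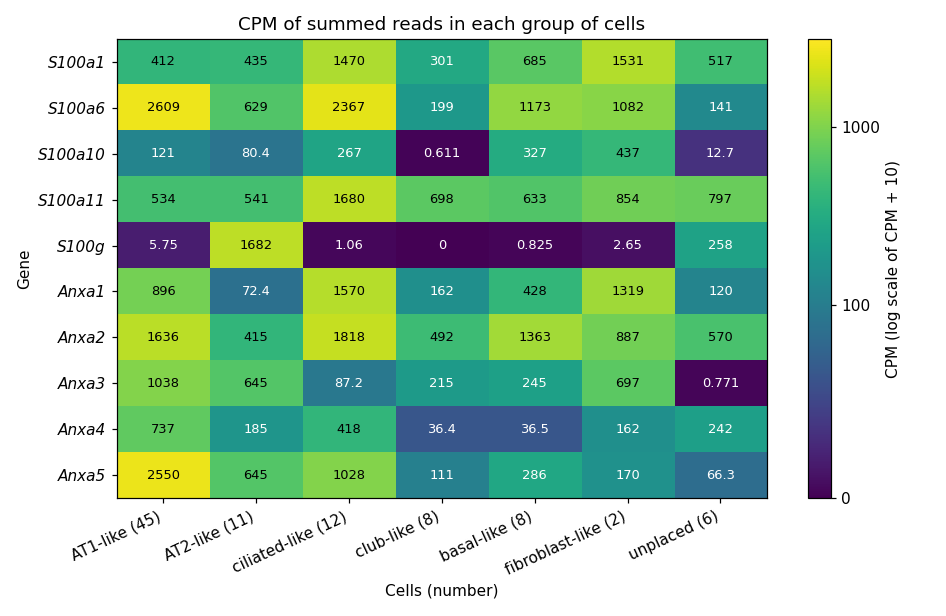
CPM of summed reads (number and colour, log scale of CPM + 10) of each gene (rows) in AT1-like, AT2-like and the groups of other cells (columns, number of cells in parentheses). The ciliated-like column is high for *S100a1*, *S100a6*, *S100a11*, *Anxa1* and *Anxa2* and low for *Anxa3* (87.2 CPM), and the AT1-like column is highest for *S100a6*, *Anxa3*, *Anxa4* and *Anxa5*.

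Within the other cells the 12 ciliated-like cells carried much of the signal. *S100a6* was at 2367 CPM in them, near the AT1-like 2609 CPM, against 199 CPM in club-like and 1173 CPM in basal-like cells. Its AT1-like level was thus not set apart from that of ciliated-like cells. *S100a11* was at 1680 CPM with a read in 12 of 12 cells, against 698 and 633 CPM. *S100a1* was at 1470 CPM, against 301 and 685 CPM. *Anxa1* was at 1570 CPM, above the AT1-like 896 CPM, against 162 and 428 CPM. *Anxa2* was at 1818 CPM, against 492 and 1363 CPM, and *Anxa5* at 1028 CPM, against 110.98 and 286 CPM. *Anxa3* was the exception, with 87.2 CPM in ciliated-like, 215 CPM in club-like and 245 CPM in basal-like cells, and a read in 4 of 12 ciliated-like cells. *S100a10* was at 267 CPM in ciliated-like and 327 CPM in basal-like cells but had 4 reads in all 8 club-like cells (0.611 CPM). *S100g* had no read in the 8 club-like cells and 7 and 5 reads in the ciliated-like and basal-like cells. Both cells with over 100 CPM of it, those with the high *Scgb1a1* given above, scored highest on the club list, with leads of 0.018 and 0.47, and were left unplaced by the limit of 0.5 chosen after the scores were seen, so the absence of reads in club-like cells depends on that limit. The 2 fibroblast-like cells had 1531 CPM of *S100a1*, 1319 CPM of *Anxa1* and 437 CPM of *S100a10*, the last all from 1 cell. These groups are of 2 to 12 cells, and single cells held up to 97.3% of a gene's reads among the club-like and basal-like cells, as for *Anxa4* in the latter.

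Known partners were then compared in single cells. The 5 pairs of S100 and annexin proteins known to bind were set among all 25 pairs of the 10 genes, with Spearman's rho of log2(CPM + 10) across cells as a description. The cells share 1 mouse and 1 chip. In AT1-like cells rho of the 25 pairs ran from -0.17 to 0.44 with a median of 0.20. *S100a6* and *Anxa5* had 0.29 (rank 3 of 25), *S100a11* and *Anxa1* 0.24 (rank 7), *S100a10* and *Anxa2* 0.24 (rank 8), *S100a6* and *Anxa2* 0.23 (rank 11) and *S100a11* and *Anxa2* 0.08 (rank 16). These values are weak and did not stand apart: the highest was *S100a11* with *Anxa4* (0.44), which is not among the known pairs. Over all 7265 genes compared, 4.40% had a higher rho with *S100a6* than *Anxa5* had, 8.82% had a higher one with *S100a10* than *Anxa2*, and 46.95% had a higher one with *S100a11* than *Anxa2*. By chip column, rho of *S100a6* and *Anxa2* was 0.42 in columns 1 to 10 (26 cells) and -0.05 in columns 11 to 20 (19 cells), while *S100a6* and *Anxa5* had 0.24 and 0.38, and *S100a10* and *Anxa2* 0.12 and 0.39. With reads thinned to 90000 per cell the last pair had 0.32. All 6 AT1-like cells with at least 100 CPM of *S100a10* had as much of *Anxa2*, as had 38 of the 45 AT1-like cells, so most AT1-like cells with *Anxa2* had less than 100 CPM of *S100a10*. The rank correlation with total reads ranged from -0.18 (*Anxa1*) to 0.23 (*Anxa5*) over these cells.

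In the other cells the known pairs were closer. *S100a6* and *Anxa2* had a rho of 0.61, *S100a11* and *Anxa2* 0.60, and *S100a6* and *Anxa5* 0.60, the 3 highest of the 25. *S100a11* and *Anxa1* had 0.46, and *S100a10* and *Anxa2* 0.39. For *S100a6* with *Anxa2* 0.0826% of the 7261 genes compared had a higher rho with *S100a6*, and for *S100a11* with *Anxa2* 0.193% with *S100a11*. The other cells mix several kinds. Without the 12 ciliated-like cells, the 24 that remain gave 0.39 for *S100a6* and *Anxa2*, 0.42 for *S100a11* and *Anxa2* and 0.22 for *S100a6* and *Anxa5*. Within the ciliated-like cells the same pairs had 0.81, 0.66 and 0.82, and *S100a11* and *Anxa1* 0.01.

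**Figure D5:**
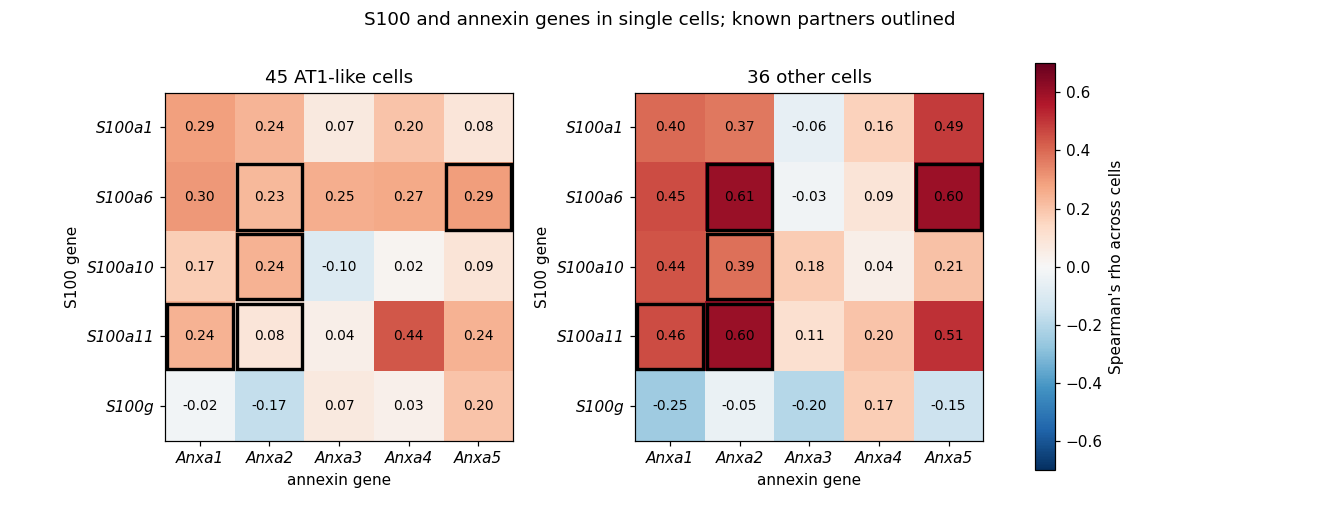
Spearman's rho of log2(CPM + 10) across cells for each S100 gene (rows) with each annexin (columns), in 45 AT1-like cells (left) and 36 other cells (right); black outlines mark the known partners. In AT1-like cells the highest value is *S100a11* with *Anxa4* (0.44), and in other cells the outlined *S100a6* with *Anxa2* (0.61) is highest.

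The annexins among themselves had rho of -0.08 to 0.43 in AT1-like cells (median 0.21 over 10 pairs), with *Anxa1* and *Anxa4* highest (0.43), followed by *Anxa1* and *Anxa2* (0.37) and *Anxa4* and *Anxa5* (0.36). *Anxa3* and *Anxa5* had the only value below 0. The S100 genes among themselves ranged from -0.15 to 0.32 with a median of 0.11. *S100a1* and *S100a6* were highest, with 0.32.

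Over all 92 cells, the 3 genes most like each member among 7271 candidates mostly followed the classes. *Anxa5* was most like *Cldn18* (0.63), *S100a6* (0.62) and *Cadm1* (0.61), and *S100a6* most like *Anxa5* (0.62), *Lama3* (0.56) and *Tspan2* (0.56). *S100g* was most like the type 2 genes *Sftpc* (0.68), *Cxcl15* (0.67) and *Slc34a2* (0.65), and *Anxa3* like *Spock2* (0.54), *Akap5* (0.52) and *Cnn2* (0.52). *Anxa1* was near to *Tppp3* (0.53) and *Crip2* (0.52), *Anxa2* to *S100a6* (0.51), *Crip2* (0.49) and *Anxa1* (0.48), and *Anxa4* to *Cadm1* (0.47), *Anxa1* (0.47) and *Anxa5* (0.46). For *S100a1* the list was *Gm12350* (0.52), *Chchd2* (0.48) and *Gm3934* (0.46). For *S100a11* its own copy *Gm12854* came first (0.81), before *Ces1d* (0.48) and *Map1b* (0.47). Most values were lower within AT1-like cells, 0.19 for *Anxa5* with *Cldn18* and 0.29 for *Anxa5* with *S100a6*, but *Anxa4* with *Anxa1* was 0.43. There *S100g*, with a read in 19 of the 45 cells, had 0.59 with *Sftpc*, 0.64 with *Cxcl15* and 0.43 with *Slc34a2*. *S100a11* with *Gm12854* was higher there, at 0.85.

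Of 20 further S100 and annexin family genes looked for, 12 were in the counts and 9 reached 10 CPM in a class (all but *S100b*, *S100z* and *Anxa8*). Of the 8 tested, 6 were more than 2-fold higher in AT1-like than AT2-like cells and none lower, with a median log2 ratio of 2.62, where 51.4% of all genes were higher, 24.3% lower and the median was 1.13. Of these 6 only *S100a16* had at least 10 CPM in both classes. The others (*S100a7a*, *S100a14*, *Anxa7*, *Anxa9* and *Anxa11*) passed the filter only through AT1-like cells, where they were high. The filter thus partly sets this count, and the floor of 3 reads partly sets the median. Of 9 tested, 5 were higher than in the other cells and none lower (33.4% and 34.8% of all genes). Between AT2-like and other cells 1 of 7 was higher and 4 were lower (21.7% and 51% of all genes). Against the other cells *S100a7a* and *Anxa9* again entered only through AT1-like cells. The 4 genes lower in AT2-like cells entered only through the other cells. With 7 to 9 genes these counts are a description. *Anxa7*, which encodes synexin, a promoter of membrane fusion, had 211 CPM in AT1-like cells with a read in 21 of 45, 65.2 CPM in the other cells, and 0 reads in the 11 AT2-like cells. With AT2-like cells set at the floor of 3 reads, *Anxa7* was 456-fold higher in AT1-like cells, a value that depends on the floor. The 0 of 11 cells allow a share with a read of up to 28.5% (Clopper-Pearson). *Anxa9* (51.3, 0 and 0.0739 CPM) was read in 9 of 45 AT1-like cells and, against the same floor of 3 reads, was 110.7-fold higher than in AT2-like cells. Its 0 of 11 AT2-like cells allow the same share of up to 28.5%, above the 20% of AT1-like cells with a read. *Anxa11* was at 26.0, 2.47 and 12.3 CPM and *Anxa6* at 44.6, 39.5 and 38.6 CPM. *S100a13*, which lies 42 bases from *S100a1* on the other strand, was at 306, 338 and 125.96 CPM, higher in both alveolar classes than in the other cells (log2 1.28 and 1.43), unlike *S100a1*. *S100a16* was at 327, 90.9 and 175 CPM, *S100a14* at 13.6, 5.09 and 20.5 CPM and *S100pbp*, whose product binds an S100 protein, at 8.99, 0.154 and 11.2 CPM. The 35.97 CPM of *S100a7a* in AT1-like cells came for 99.2% from 1 cell, and without it the level was 0.311 CPM.

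Of 24 listed partners and other calcium proteins, 19 were in the counts and 16 reached 10 CPM. Of the 13 tested, 7 were more than 2-fold higher in AT1-like than AT2-like cells and 1 lower, 6 of 16 higher and 3 lower than in the other cells, and 2 of 16 higher and 8 lower in AT2-like than in other cells. Of the 7, *Dlc1*, *Sgta*, *Pdcd6* and *Calm3* reached 10 CPM only in AT1-like cells, where they were high. The ratios of *Sgta* and *Pdcd6* also rest on the floor of 3 reads. The 3 lower than in the other cells (*Pla2g4a*, *Atp2b4* and *Vdr*) entered only through the other cells. The filter thus partly sets these counts. The counts higher in AT1-like cells and lower in AT2-like cells are near the shares of all genes (51.4%, 33.4% and 51%), so they are no result about the partners. The 2 counts lower in AT1-like cells were below the shares of all genes (24.3% and 34.8%). So was the count higher in AT2-like than in other cells (21.7%). With 13 to 16 genes these counts are a description. *Ahnak*, the large scaffold that binds the complex of S100A10 and annexin A2, was read in all 45 AT1-like cells, from 61.9 to 18339 CPM with a median of 4027 CPM. AT2-like cells had a median of 375 CPM and other cells one of 263 CPM. Its log2 ratio was 3.18 over AT2-like and 3.09 over other cells, larger than that of either partner. *Dlc1*, whose product binds S100A10, had 227, 1.54 and 148 CPM. *Pdcd6* and *Pef1*, calcium sensors that bind annexins, had 196, 0.154 and 116.4 CPM, and 154, 11.3 and 36.5 CPM. *Cacybp*, named for its binding of calcyclin, was the 1 partner lower in AT1-like than AT2-like cells, with 56.8 against 140 CPM, but 1 cell held 70.9% of its AT2-like reads. Of the calmodulin genes, *Calm2* (545, 494 and 217 CPM) differed by less than 2-fold between the alveolar classes and *Calm3* (78.6, 3.397 and 31.8 CPM) by more. *Atp2b1*, a calcium pump of the plasma membrane, had 325, 223 and 135.9 CPM. *Vdr*, the vitamin D receptor known to drive *S100g* in the gut, had 8 reads in AT1-like and 1 read in AT2-like cells, against 1065 reads (39.4 CPM) in the other cells.

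The 49 cells left out for a mitochondrial share of 0.15 or more, from the same mouse, held 19 cells above the *Ager* limit, 16 above the *Sftpc* limit and 14 others. In them *S100a6* was at 1153 CPM above the *Ager* limit and 152 CPM above the *Sftpc* limit, *S100g* at 1.75 and 764 CPM, *Anxa1* at 329 and 14.3 CPM, *Anxa3* at 1255 and 115.3 CPM, *Anxa4* at 879 and 117.1 CPM and *Anxa5* at 719 and 140.7 CPM. The direction between the alveolar classes was that of the kept cells for 7 of the 10 genes, the 5 annexins, *S100a6* and *S100g*. The share of all genes that kept their direction was not computed, so this count is no result about the members. *S100a10* turned, with 81.6 CPM above the *Ager* limit and 286 CPM above the *Sftpc* limit, as did the small differences of *S100a1* (429 and 53.4 CPM) and *S100a11* (421 and 185 CPM). Against the others *Anxa4* was near equal here (879 and 795 CPM), where it had been 4.06-fold higher in kept cells.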

How the data were processed

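The data are single-cell RNA-seq read counts of 141 cells from 1 mouse. Per the labels and the methods, the authors used Trim Galore and FastQC for quality control of the reads. Alignment to GRCm38 used HISAT2 and gene counting featureCounts, and the authors deposited whole-number counts without normalization. Since no molecular identifiers are named, a count includes PCR copies. Every cell is its own sample in the labels, but all come from 1 animal and form 1 sample, so classes were compared without a test and no p-value or standard error is given. Total reads were 91402 to 2170760 per cell. A floor of 3 reads over a class was chosen for the ratios.

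Cells were kept with less than 0.15 of their reads on the 37 mitochondrial genes, classes were cut at 5000 CPM of *Ager* and 8000 CPM of *Sftpc*, and counts were summed per class. Intervals are exact Poisson for CPM and Clopper-Pearson for shares (95%). Genes tested had at least 10 CPM in 1 of the compared classes, and a class with 3 reads or fewer was set at 3. Correlations used log2(CPM + 10). The named genes are the 10 members, the listed family and partner genes with at least 10 CPM in a class, and the 3 most like genes of each member with reads in at least 50% of kept cells and of *S100g*, except for a gene that is not reported here. The members, the lists and the limits of the classes were chosen with earlier results of these data known. The groups within the other cells were split by lists of club, basal, ciliated and fibroblast markers.

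The alternatives changed the mitochondrial maximum, the limits of the classes, the library size, the weight of cells, the depth (90000 reads per cell), the chip columns, the detection minimum and the correlation measure, and left out single cells. The calculation of the class ratios was checked on simulated counts. Positions come from GENCODE vM21 and promoters from RefSeq (GRCm38.p6), and 94.0% of gene symbols were in GENCODE vM21. Protein sequences were not used here. Python 3.11.15 with numpy 2.4.6, pandas 2.3.3, scipy 1.17.1 and matplotlib 3.10.9 was used, and blastn 2.17.0 looked for near-identical transcripts.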

Additional observations from a re-analysis of the deposited data

How the results depend on the processing

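The data are those of 1 mouse, so nothing here speaks to other animals. The 11 AT2-like cells and 2 to 12 cells of the smaller groups set the precision, and single cells held much of the reads of *S100a10* and, in AT2-like cells, of *S100a6* and *Anxa1*. No paired analysis was possible because the cells form 1 group of 1 animal and no result comes from a test. In all 17 alternatives the sign between AT1-like and AT2-like cells was that of the report for *S100a6*, *S100g* and the 5 annexins. *S100a10* had the same sign in 11 of them, and *S100a1* and *S100a11* in 12. Against the other cells the sign of AT1-like cells held in all 17 for every gene but *S100a10* (16 of 17). How many of all genes kept their sign was not computed. Among the cells with a mitochondrial share of 0.15 or more, the log2 ratio of AT1-like to other cells was 9.54 for *Anxa3*, on 7 reads in the others, 0.14 for *Anxa4* and 1.13 for *Anxa5*. In those cells 8 members were higher in AT1-like than AT2-like cells (5 in the report), 2 higher in AT2-like cells (1 in the report), none (0) lower in AT1-like than other cells (2 in the report) and 6 lower in AT2-like than other cells (3 in the report). There the log2 ratio of *S100a10* between AT2-like and other cells was 7.89, on 5 reads in the others, against -1.19 in the report, and over all deposited cells it was 0.034. The count of members lower in AT1-like than other cells was 4 with a mitochondrial maximum of 0.10 and 1 with all deposited cells, an *Ager* limit of 10000 CPM, library sizes without mitochondrial reads, chip columns 11 to 20, or, an alternative chosen after seeing the data, without the 2 fibroblast-like cells. *S100a1*, at -1.02, stands at the limit in this count. The count lower in AT2-like than other cells was 5 with all deposited cells, 5 with an *Sftpc* limit of 2000 CPM and 6 in chip columns 11 to 20. The count higher in AT2-like than AT1-like cells was 2 in chip columns 1 to 10. The share of all genes was not computed for any alternative in which a count changed. A changed count therefore cannot be told apart from a shift of all genes. Of 30 shares of cells with a read, 6 moved beyond their interval when reads were thinned to 90000 and 14 when 10 reads were required. An *Ager* limit of 2000 CPM, and placing cells past both limits, left the classes as they were. Of the known pairs, 3 to 5 lay among the upper pairs in AT1-like cells under the 9 alternatives run for them, against 4 in the report. Without the *S100g*-rich AT2-like cell of lowest *Sftpc*, also left out after seeing the data, no count of members changed.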
